A study of Mus musculus with 2 samples.

Results

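Mitosis and spindle genes encode the proteins that separate the chromosomes of a dividing cell: the kinase CDK1 and its cyclins, the spindle checkpoint, kinetochore proteins, spindle motors, and the machinery that condenses chromosomes and cuts the cell apart. A list of 40 such genes, chosen with earlier results of these data known, was compared between 2 arrays. These were 1 of B-Gal positive and 1 of B-Gal negative cells from healing mouse skin. Of the 40, 39 had a probe set that names the gene alone, out of 19938 genes on the array with such a probe set. Ccnb1, which encodes cyclin B1, had none in the platform annotation used here and was not analysed. Both groups were labelled as cells of skin scar tissue from TCF reporter mice, 1 week after wounding. The label is read here as mice whose reporter marks cells with active TCF factors, which act in the nucleus with beta-catenin in Wnt signalling, and B-Gal as the reporter's beta-galactosidase. The method of separating the cells, the number of mice and their age are not stated in the sources used here. With 1 array per group no difference has a replicate error or a test, and every value below describes these 2 arrays.

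In a dividing cell, cyclins A and B activate CDK1, Aurora and Polo kinases build the spindle, and the spindle checkpoint holds back the anaphase-promoting complex until each chromosome is attached. Many of these genes are transcribed together late in the cell cycle. Their promoters often carry a short element called CHR (cell cycle genes homology region), bound by the DREAM complex in resting cells and by B-MYB and FOXM1 complexes in dividing cells, and CCAAT boxes, bound by the factor NF-Y. In a healing wound, several cell types divide, among them fibroblasts, endothelial cells and keratinocytes.

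Promoter windows of 6 members are shown because members lay on the same side of the comparison and most member windows held these elements. A link between side and elements was not tested. Anln and Prc1 had the largest differences of the members, Cdk1, Ccnb2 and Plk1 encode the kinase core of mitosis, and Mki67 had the smallest difference. Each window holds 300 bases from RefSeq, build GRCm38.p6, from 250 bases before the annotated start of the gene to 50 after it, written 5′ to 3′ in the direction of the gene. Capitals mark matches to CHR (TTTGAA or TTCGAA) or to the CCAAT box (CCAAT), each searched on both strands.
Anln (chr9:22389157-22389456, minus strand): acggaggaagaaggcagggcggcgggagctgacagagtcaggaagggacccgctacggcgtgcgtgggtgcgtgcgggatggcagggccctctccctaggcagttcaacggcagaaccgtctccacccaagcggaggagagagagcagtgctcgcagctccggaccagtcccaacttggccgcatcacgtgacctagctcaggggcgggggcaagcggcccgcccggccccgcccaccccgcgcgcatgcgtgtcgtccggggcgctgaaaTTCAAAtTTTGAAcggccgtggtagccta
Prc1 (chr7:80294201-80294500, plus strand): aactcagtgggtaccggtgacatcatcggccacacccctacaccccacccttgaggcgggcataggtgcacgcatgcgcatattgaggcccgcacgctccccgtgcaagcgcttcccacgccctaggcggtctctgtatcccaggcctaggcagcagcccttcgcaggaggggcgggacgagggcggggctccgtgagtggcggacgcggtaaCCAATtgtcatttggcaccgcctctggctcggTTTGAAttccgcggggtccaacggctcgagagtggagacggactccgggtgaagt
Cdk1 (chr10:69352863-69353162, minus strand): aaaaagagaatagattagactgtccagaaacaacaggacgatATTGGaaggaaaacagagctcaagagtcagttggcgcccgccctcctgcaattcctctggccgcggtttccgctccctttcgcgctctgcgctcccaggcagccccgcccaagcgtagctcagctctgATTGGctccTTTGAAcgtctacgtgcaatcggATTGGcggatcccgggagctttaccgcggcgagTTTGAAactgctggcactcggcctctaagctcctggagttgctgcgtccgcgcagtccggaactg
Ccnb2 (chr9:70421505-70421804, minus strand): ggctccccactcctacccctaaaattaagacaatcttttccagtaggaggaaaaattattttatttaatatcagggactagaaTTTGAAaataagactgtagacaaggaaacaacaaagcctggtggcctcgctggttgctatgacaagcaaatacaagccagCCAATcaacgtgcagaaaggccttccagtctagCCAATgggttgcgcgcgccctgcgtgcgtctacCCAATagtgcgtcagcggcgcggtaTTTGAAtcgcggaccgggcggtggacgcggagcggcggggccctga
Plk1 (chr7:122159185-122159484, plus strand): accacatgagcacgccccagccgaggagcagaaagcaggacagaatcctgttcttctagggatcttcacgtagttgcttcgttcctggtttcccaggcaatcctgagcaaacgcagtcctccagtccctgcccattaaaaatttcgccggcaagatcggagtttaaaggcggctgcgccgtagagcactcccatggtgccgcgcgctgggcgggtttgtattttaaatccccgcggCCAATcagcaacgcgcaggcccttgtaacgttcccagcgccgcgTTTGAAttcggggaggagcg
Mki67 (chr7:135716330-135716629, minus strand): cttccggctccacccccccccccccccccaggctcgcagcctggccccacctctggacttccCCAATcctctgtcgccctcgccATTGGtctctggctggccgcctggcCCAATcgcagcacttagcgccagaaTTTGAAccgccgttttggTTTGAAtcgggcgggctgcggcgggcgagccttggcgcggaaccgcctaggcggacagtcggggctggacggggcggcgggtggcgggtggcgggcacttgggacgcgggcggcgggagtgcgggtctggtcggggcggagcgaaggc

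All 39 measured members had lower values in B-Gal positive than in B-Gal negative cells, and 28 of them were at least 2-fold lower. No member was higher. When 32 units were added to every linear signal, an offset that shrinks differences of low values, 18 of the 28 stayed at least 2-fold lower. The rest of the 28 were Melk, Cdca3, Ttk, Cdc20, Ube2c, Cenpe, Cenpf, Kif2c, Kif4 and Ncapd2, with differences from -0.97 to -0.75. The members' median difference, B-Gal positive minus B-Gal negative, was -1.23 on the log2 scale, a 2.34-fold lower value, and single differences ran from -2.28 for Anln to -0.29 for Mki67. Over all 13786 expressed genes, 12.7% were at least 2-fold lower, 9.92% were at least 2-fold higher, and the median difference was 0.06. A difference below 0 was found for 45.5% of the expressed genes. Among the 9602 other expressed genes with a mean value in the range of the members (5.82 to 8.91), 13.6% were at least 2-fold lower and 9.13% at least 2-fold higher. Expressed means above a floor of 5.59 in at least 1 array, the 95th percentile of 1190 olfactory and vomeronasal receptor genes, which are not known to be used widely in skin.

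**Figure D1:**
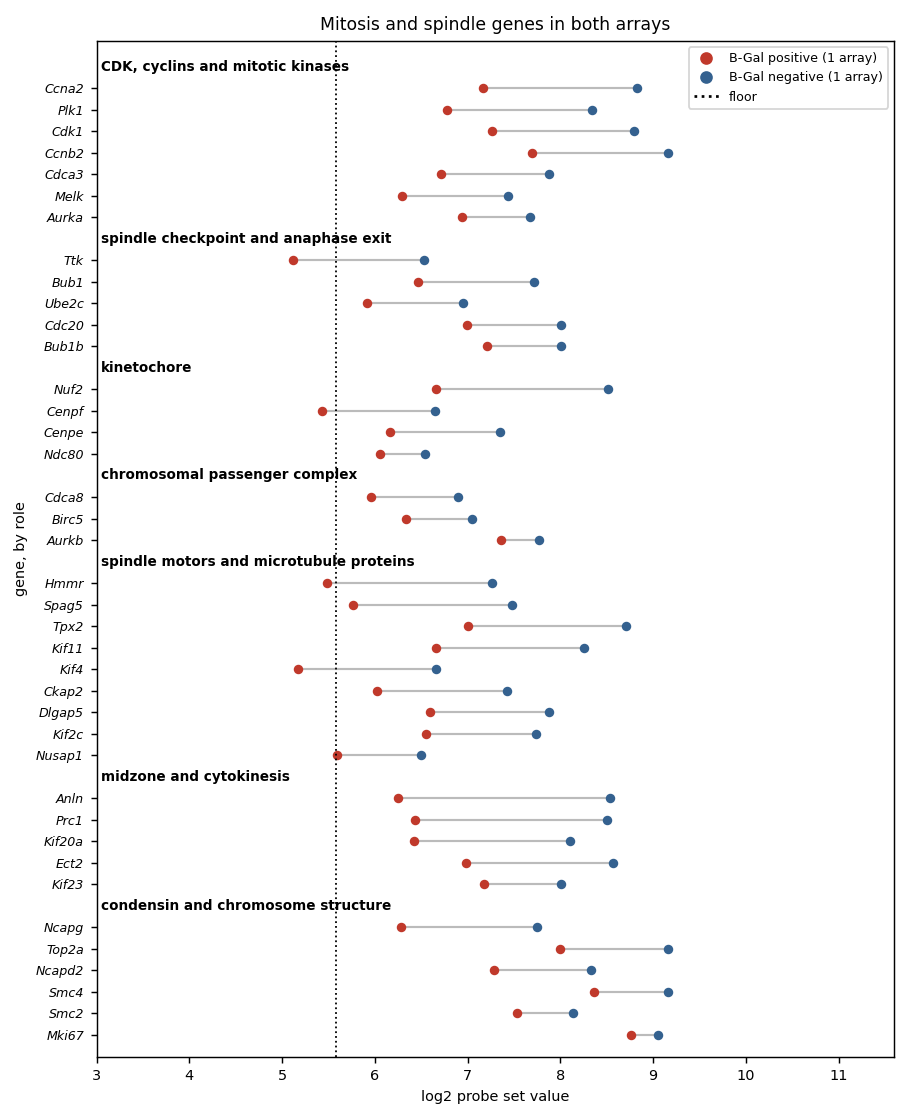
Log2 probe set value (horizontal axis) of each of the 39 measured members in B-Gal positive (red) and B-Gal negative cells (blue), 1 array each, grouped by role. The red point lies left of the blue one in every row, and 4 red points, those of Ttk, Cenpf, Kif4 and Hmmr, lie left of the floor of 5.59 (dotted line).

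Log2 values of the members ran from 5.12 to 8.76 in B-Gal positive cells, with a median of 6.59. They ran from 6.49 to 9.16 in B-Gal negative cells, with a median of 7.88. All 39 members lay above the floor in B-Gal negative cells, and 35 of them also in B-Gal positive cells, so that the signal of most mitosis genes was lower but still measurable there. The differences of the members had little relation to their mean signal (r = 0.08 across 39 genes, which share both arrays). Of the members, 18 were at or below the 10th percentile of all expressed differences (-1.27), 30 at or below the 15th (-0.84) and 37 at or below the 25th (-0.40). At the low extreme, 1 member, Anln, was at or below the 5th percentile (-2.18).

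**Figure D2:**
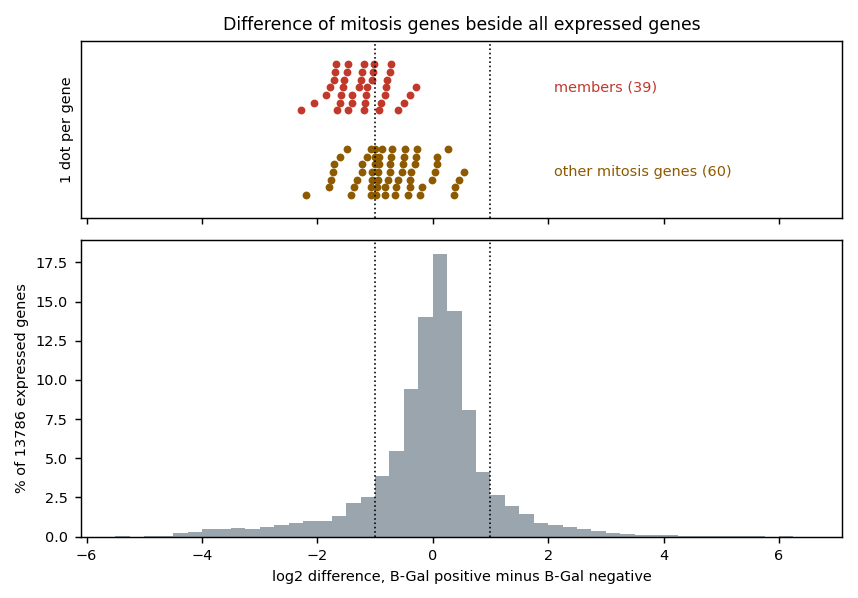
Log2 difference, B-Gal positive minus B-Gal negative (horizontal axis), with 1 dot per gene for the members and the other mitosis genes (top) and the percentage of the 13786 expressed genes in bins 0.25 wide (bottom). Dotted lines mark 2-fold; the members' dots lie between -2.28 and -0.29, left of the peak of all expressed genes near 0.

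The 2 arrays also differed in markers of cell types. All 15 macrophage markers were higher by 2-fold or more in B-Gal positive cells, with a summed linear signal of 52987 in B-Gal positive and 4440 in B-Gal negative cells. All 15 fibroblast markers were lower by 2-fold or more, with a summed signal of 16083 in B-Gal positive and 98556 in B-Gal negative cells. Endothelial markers were lower by this much for 9 of 10 genes, with sums of 846 in B-Gal positive and 2862 in B-Gal negative cells, and pericyte and smooth muscle markers for 8 of 10, with sums of 1079 in B-Gal positive and 10966 in B-Gal negative cells. So were 8 of 8 expressed mast cell markers, with sums of 379 in B-Gal positive and 3014 in B-Gal negative cells, and 4 of 7 T and NK cell markers, with sums of 485 in B-Gal positive and 2098 in B-Gal negative cells. Among these 7, Cd4 lay on the other side, 2.94-fold higher, and Ncr1, counted as lower, was at least 1.03-fold lower against the floor. The sum in B-Gal negative cells rests mostly on Thy1 (log2 values of 6.77 in B-Gal positive and 10.47 in B-Gal negative cells), which is also in the fibroblast list. Neutrophil markers were split, with 4 of 8 lower by this much and sums of 868 in B-Gal positive and 1782 in B-Gal negative cells. Of keratinocyte markers 2 of 8 were lower by this much, with sums of 598 in B-Gal positive and 766 in B-Gal negative cells. Counts used expressed markers, while sums used every marker with a probe set, 11 in the keratinocyte list. Low sums therefore hold background signal. No marker was at 0. Under the floor in B-Gal positive cells were 5 mast cell markers with Cpa3 among them, and the smooth muscle gene Cnn1. So were 4 each of the neutrophil, T and NK cell and keratinocyte lists. In B-Gal negative cells, 2 macrophage markers (Cd163 and Ms4a7), 5 neutrophil and 4 keratinocyte markers lay under the floor. So did 1 mast cell marker and 1 T and NK cell marker. The part of these markers in the members' difference was not tested. In such bulk samples, fewer dividing cells and less mitotic RNA per cell cannot be told apart.

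Cyclin and kinase genes of mitotic entry were lower together. Of 7 measured members, 6 were at least 2-fold lower, with a median difference of -1.46. Cdk1, the kinase that drives entry into mitosis, had log2 values of 7.26 in B-Gal positive and 8.80 in B-Gal negative cells and was 2.91-fold lower. Its partner gene Ccnb2, which encodes cyclin B2, had 7.70 in B-Gal positive and 9.16 in B-Gal negative cells and was 2.76-fold lower. The cyclin A2 gene Ccna2, whose product also acts in S phase, had 7.16 in B-Gal positive cells and 8.82 in B-Gal negative cells and was 3.16-fold lower. CDK1 and the genes of both measured cyclins thus lay within a narrow range of differences, from -1.66 to -1.46. Plk1, the Polo kinase of centrosomes, spindle and cytokinesis, had 6.78 in B-Gal positive and 8.34 in B-Gal negative cells and was 2.95-fold lower. Cdca3, a trigger of mitotic entry that targets the WEE1 kinase for destruction, was 2.25-fold lower, with 6.71 in B-Gal positive cells and 7.88 in B-Gal negative cells. Melk, a kinase gene of dividing and progenitor cells, was 2.21-fold lower, with 6.29 in B-Gal positive and 7.44 in B-Gal negative cells. Aurka, the Aurora kinase of centrosomes, was the member of this group with the smallest difference, 6.94 in B-Gal positive and 7.68 in B-Gal negative cells (-0.74).

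Of the spindle checkpoint and anaphase genes, 4 of 5 reached 2-fold, with a median difference of -1.04, close to the threshold of 2-fold. Bub1, a checkpoint kinase of kinetochores, had log2 values of 6.46 in B-Gal positive and 7.72 in B-Gal negative cells and was 2.38-fold lower. Bub1b, which encodes the checkpoint protein BUBR1, had 7.21 in B-Gal positive cells and 8.01 in B-Gal negative cells and differed by -0.80. Ttk, which encodes the checkpoint kinase MPS1, had 5.12 in B-Gal positive and 6.53 in B-Gal negative cells. The value in B-Gal positive cells lay under the floor, and against the floor Ttk was at least 1.92-fold lower. Cdc20, the activator of the anaphase-promoting complex and the target of the checkpoint, was 2.02-fold lower, with 6.99 in B-Gal positive cells and 8.01 in B-Gal negative cells, and was just under 2-fold with the arrays centred on their medians (-0.99), quantile normalized (-0.97) or with the offset (-0.86). Ube2c, the ubiquitin-conjugating enzyme of that complex, was 2.05-fold lower, with 5.91 in B-Gal positive and 6.95 in B-Gal negative cells. With the offset, Ttk (-0.895) and Ube2c (-0.75) were under 2-fold as well. Cdc20, Ube2c and Ncapd2 just inside and Cdca8 (-0.94) just outside were the 4 members within 0.1 of the 2-fold threshold on the log2 scale.

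Kinetochore genes, whose products join chromosomes to microtubules, reached a 2-fold lower value for 3 of 4 members. Nuf2 had log2 values of 6.66 in B-Gal positive and 8.51 in B-Gal negative cells and was 3.59-fold lower. Ndc80, whose product pairs with NUF2 in the microtubule-binding NDC80 complex, had 6.05 in B-Gal positive cells and 6.54 in B-Gal negative cells and differed by -0.49. The genes of these bound partners thus had the largest and the smallest difference of the kinetochore group. The other genes of that complex, Spc24 and Spc25, named after their values were seen, lay between them, with differences of -0.95 and -0.98. Cenpe, a kinetochore motor gene, was 2.27-fold lower, with 6.16 in B-Gal positive and 7.35 in B-Gal negative cells. Cenpf, a large kinetochore protein gene, had 5.43, under the floor, in B-Gal positive and 6.65 in B-Gal negative cells and was at least 2.09-fold lower. With the offset, Cenpe (-0.91) and Cenpf (-0.82) were under 2-fold.

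The chromosomal passenger complex, which corrects wrong attachments and directs cytokinesis, was the role group with the smallest median difference (-0.72), and 0 of its 3 members reached 2-fold. Aurkb, its kinase, had log2 values of 7.36 in B-Gal positive and 7.77 in B-Gal negative cells and differed by -0.40. Birc5, which encodes survivin, had 6.33 in B-Gal positive cells and 7.05 in B-Gal negative cells and differed by -0.72. Cdca8, which encodes borealin, had 5.96 in B-Gal positive and 6.89 in B-Gal negative cells and differed by -0.94. Incenp, the scaffold of the complex and not a member, was on the other side, with 7.78 in B-Gal positive cells and 7.42 in B-Gal negative cells and a difference of 0.36.

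Spindle motor and microtubule protein genes had a median difference of -1.48, and 8 of 9 were lower by 2-fold or more. Kif11, the motor that pushes spindle poles apart, had log2 values of 6.65 in B-Gal positive and 8.25 in B-Gal negative cells and was 3.03-fold lower. Tpx2, a spindle assembly factor that activates Aurora A, had 7.01 in B-Gal positive and 8.70 in B-Gal negative cells and was 3.24-fold lower, while its partner gene Aurka was 1.66-fold lower. Spag5, which encodes the spindle protein astrin, had 5.76 in B-Gal positive cells and 7.48 in B-Gal negative cells and was 3.28-fold lower. These genes had signals above the floor in both arrays. Hmmr, a spindle pole protein gene also known as a hyaluronan receptor, had 5.48 in B-Gal positive and 7.27 in B-Gal negative cells and was at least 3.20-fold lower against the floor. Kif4, a chromosome-bound motor gene on the X chromosome, had 5.18 in B-Gal positive and 6.66 in B-Gal negative cells and was at least 2.1-fold lower against the floor. Ckap2, a microtubule-binding protein gene, was 2.63-fold lower, with 6.03 in B-Gal positive cells and 7.42 in B-Gal negative cells. Dlgap5, a spindle fibre protein gene, was 2.44-fold lower, with 6.59 in B-Gal positive and 7.87 in B-Gal negative cells. Kif2c, a motor that takes microtubules apart, was 2.28-fold lower, with 6.55 in B-Gal positive cells and 7.74 in B-Gal negative cells. Nusap1, a microtubule bundling protein gene, had 5.60, close to the floor, in B-Gal positive and 6.49 in B-Gal negative cells and differed by -0.90.

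Midzone and cytokinesis genes had the largest median difference of the 7 role groups, -1.68, and 4 of 5 members passed 2-fold. Anln, which encodes the contractile ring protein anillin, had log2 values of 6.25 in B-Gal positive and 8.53 in B-Gal negative cells and was 4.86-fold lower. Prc1, which bundles midzone microtubules, had 6.44 in B-Gal positive and 8.50 in B-Gal negative cells and was 4.19-fold lower. Anln and Prc1 were the members that were at least 4-fold lower, and 9 members in all were at least 3-fold lower. Kif20a, a midzone motor gene, was 3.19-fold lower, with 6.43 in B-Gal positive cells and 8.10 in B-Gal negative cells. Ect2, an exchange factor gene whose product sets the division plane, differed by -1.58, with 6.98 in B-Gal positive and 8.56 in B-Gal negative cells. Kif23, the motor subunit of centralspindlin, had 7.18 in B-Gal positive cells and 8.01 in B-Gal negative cells and differed by -0.83. Racgap1, its partner in centralspindlin and not a member, was 3.27-fold lower, with 7.40 in B-Gal positive and 9.11 in B-Gal negative cells.

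Of the genes of condensin and chromosome structure, 3 of 6 passed 2-fold. In condensin I, the ring that compacts chromosomes after the nuclear envelope breaks down, Ncapg was 2.76-fold lower, with log2 values of 6.28 in B-Gal positive and 7.74 in B-Gal negative cells. Ncapd2, also specific to condensin I, was 2.07-fold lower, with 7.28 in B-Gal positive cells and 8.33 in B-Gal negative cells. The ring subunits shared by both condensins differed less: Smc4 had 8.36 in B-Gal positive and 9.16 in B-Gal negative cells (-0.80), and Smc2 had 7.53 in B-Gal positive cells and 8.14 in B-Gal negative cells (-0.61). The condensin II genes Ncapg2, Ncapd3 and Ncaph2, named after their values were seen, differed by 0.08 (about 0 after loess), 0.07 and -0.27, and the third condensin I gene, Ncaph, by -0.49. Top2a, the topoisomerase that untangles sister chromosomes, had 8.0 in B-Gal positive and 9.16 in B-Gal negative cells and was 2.23-fold lower. A second probe set of Top2a lay under the floor in both arrays, with 2.76 in B-Gal positive cells and 3.11 in B-Gal negative cells, and the mean of both probe sets differed by -0.75. Mki67, the gene of the proliferation marker Ki-67, which coats mitotic chromosomes, had 8.76 in B-Gal positive and 9.05 in B-Gal negative cells and was 1.22-fold lower, the smallest difference of the 39. It, Aurkb and Ndc80 were the 3 members under 1.5-fold, and 8 members lay between 1.5-fold and 2-fold.

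A wider list of 67 other mitosis genes held 60 expressed ones. Differences were below 0 for 52 of them and above 0 for 8 (median -0.80), 20 passed 2-fold on the lower side and 0 on the higher side. This share, 33.3%, lay between that of the members (71.8%) and that of all expressed genes (12.7%). Depdc1a, a gene of dividing cells, was lowest in the list, with a log2 value of 4.89, under the floor, in B-Gal positive and 7.10 in B-Gal negative cells, and was at least 2.85-fold lower. The checkpoint gene Mad2l1 was 2.08-fold lower (8.11 in B-Gal positive cells and 9.17 in B-Gal negative cells), though just under 2-fold with the offset (-0.98). Cenpa, the histone variant of centromeres, differed by -0.18 (8.48 in B-Gal positive and 8.66 in B-Gal negative cells).

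Core genes of the anaphase-promoting complex, a ubiquitin ligase present through much of the cell cycle, passed 2-fold on the lower side for 3 of 15 (median -0.51). Cdc16 had the lowest difference (3.11-fold lower, 7.37 in B-Gal positive cells and 9.01 in B-Gal negative cells) and Anapc10 the highest (0.72). Cohesin genes, which hold sister chromosomes together and also act in cells that do not divide, had a median difference of 0.22. Of 11 expressed, 0 were lower and 1 (9.09%) higher by 2-fold or more, against 12.7% and 9.92% of all expressed genes. The acetyltransferase gene Esco1 was 2.08-fold higher, though under 2-fold with both of its probe sets averaged or with an offset of 32. The cohesin ring gene Rad21 differed by -0.16, with 9.72 in B-Gal positive and 9.88 in B-Gal negative cells.

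DNA replication genes, which act in S phase before mitosis, had a median difference of -0.39. Of 31 expressed, 4 (12.9%) passed 2-fold on the lower side and 0 on the higher side. This share was close to the 12.7% of all expressed genes at that threshold. At 1.5-fold, 12 of 31 were lower and 0 higher, against 20.1% and 18.8% of all expressed genes, and 23 of 31 had a difference below 0, against 45.5%. Tyms, the thymidylate synthase gene, was at least 2.65-fold lower (5.30 in B-Gal positive cells, under the floor, and 6.99 in B-Gal negative cells). Mcm2, a subunit of the replicative helicase, differed by -0.39 (7.91 in B-Gal positive cells and 8.30 in B-Gal negative cells). Pcna, the sliding clamp of DNA polymerases, was highest of the list and lay on the other side, with log2 values of 11.04 in B-Gal positive and 10.53 in B-Gal negative cells (0.51).

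**Figure D3:**
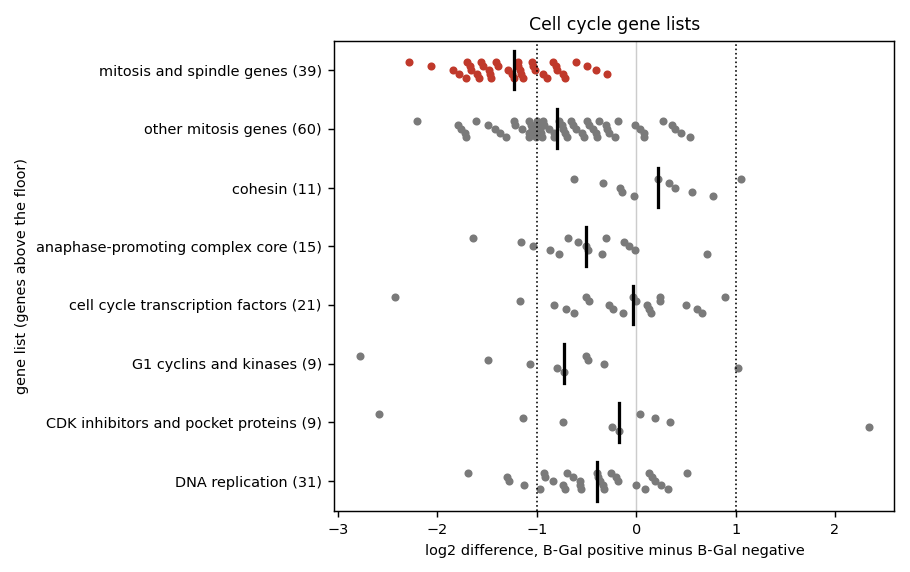
Log2 difference, B-Gal positive minus B-Gal negative (horizontal axis), of each gene above the floor in the members (red) and in 7 other cell cycle lists (grey), with list medians as black bars and 2-fold as dotted lines. The members' median lies at -1.23, that of other mitosis genes at -0.80, that of replication genes at -0.39 and that of cohesin genes at 0.22.

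Cell cycle transcription factors went both ways around a median of -0.03. Of 21 expressed genes 2 (9.52%) passed 2-fold, both lower, against 12.7% of all expressed genes on that side. Foxm1, the activator of late cell cycle genes, had log2 values of 6.09 in B-Gal positive and 7.26 in B-Gal negative cells. It was 2.25-fold lower, though under 2-fold with the offset (-0.89). Mybl2, which encodes B-MYB, had 6.74 in B-Gal positive and 7.36 in B-Gal negative cells and differed by -0.62. Myc, a driver of growth and cell cycle entry, was 5.36-fold lower, with 8.59 in B-Gal positive cells and 11.02 in B-Gal negative cells. Of the 8 E2F genes, E2f1, E2f2, E2f4 and E2f8 had differences between 0.11 and 0.24, E2f6 had equal values (0.0), and E2f5, E2f3 and E2f7 differed by -0.03, -0.13 and -0.83. Of the genes of the MuvB core of DREAM, Lin54 differed by 0.90, Lin9 by 0.66, Lin37 by 0.50, Lin52 by 0.15 and Rbbp4 by -0.27. None of these 5 reached 2-fold.

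Of 9 G1 cyclin and kinase genes, 3 (33.3%) were lower and 1 (11.1%) higher by 2-fold or more, against 12.7% and 9.92% of all expressed genes. Ccnd2, a cyclin D gene of the first step of the cycle, had log2 values of 8.21 in B-Gal positive and 10.99 in B-Gal negative cells and was 6.86-fold lower. Ccnd1 (-0.51) and Ccnd3 (-0.48) differed less. The cyclin D partners went opposite ways: Cdk4 was 2.09-fold lower (9.90 in B-Gal positive and 10.96 in B-Gal negative cells), and Cdk6, with 9.83 in B-Gal positive and 8.81 in B-Gal negative cells, was 2.03-fold higher. On the log2 scale Cdk6 was under the 2-fold difference of 1 with loess (0.95), quantile normalization (0.93) or the offset (0.97). Ccne2, an S phase cyclin gene counted among the 3 lower ones, was at least 1.5-fold lower against the floor (4.68 in B-Gal positive and 6.18 in B-Gal negative cells). With values raised to the floor it differed by -0.59, and the count of lower genes was 2.

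Among CDK inhibitor and pocket protein genes, which restrain the cycle, 2 of 9 (22.2%) passed 2-fold on the lower side and 1 (11.1%) on the higher side. Over all expressed genes these shares were 12.7% and 9.92%. Rb1, which encodes the retinoblastoma protein that holds E2F factors in check, had log2 values of 9.64 in B-Gal positive and 7.30 in B-Gal negative cells and was 5.07-fold higher. The related genes Rbl1 and Rbl2 differed by 0.19 and 0.34. Cdkn1c, which encodes the inhibitor p57, differed by -2.58 (7.61 in B-Gal positive cells and 10.19 in B-Gal negative cells). Cdkn2c, an inhibitor gene of cyclin D kinases, was 2.20-fold lower (6.89 in B-Gal positive and 8.02 in B-Gal negative cells). With the offset Cdkn2c was just under 2-fold (-0.96). Cdkn1b, which encodes p27, differed by -0.17. The restraining genes therefore did not lie on 1 side, and Cdkn1a had no probe set of its own here.

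Most members with a promoter window shared the promoter elements named above. These elements are described for late cell cycle genes, so high match rates in such a list could be foreseen. RefSeq windows matched 34 of the 40 members, among them Ccnb1, and 27025 genes in all; where a gene had several windows, the first listed was used. A CHR match was found in 28 of 34 member windows (82.4%), against 13.6% of the windows of 10896 expressed genes and 19.4% of all 27025. A CCAAT match was found in 27 of 34 (79.4%), against 37.5% of expressed genes and 37.9% of all. It was also found in 34 of 55 windows of other mitosis genes (61.8%) and 16 of 26 of replication genes (61.5%). The smaller lists had it in 4 of 7 cohesin genes, 7 of 16 transcription factors and 5 of 14 genes of the anaphase-promoting complex. It was in 2 of 6 G1 genes and 2 of 8 CDK inhibitors and pocket proteins. At least 2 CCAAT matches were found in 18 member windows (52.9%), against 13.9% of expressed genes and 12.2% of all. In other mitosis genes the share was 34.5% and in replication genes 34.6%. Single bases of CHR and CCAAT matches can overlap, which happened 1 time in the members. A match describes letters in a window, and binding was not measured.

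The CHR matches of the members were densest just after the start of the gene. Within 50 bases of it, 24 of 34 member windows held a CHR match (70.6%), against 3.46% of expressed genes and 5.29% of all genes. This was not particular to the members, as 30 of 55 windows of other mitosis genes (54.5%) held one there too. The first 50 bases from the start held 52.9 CHR matches per 100 member windows, against 2.46 in all genes, and the 50 bases before it 20.6, against 3.08. A second rise lay at positions -150 to -101 from the start, with 23.5 CHR matches per 100 member windows, against 4.10. CCAAT matches were densest in the 100 bases before the start, with 61.8 per 100 member windows between 100 and 51 bases before it, against 14.3 in all genes, and 58.8 in the last 50 bases before it, against 10.2. The first 50 bases from the start held 5.88 CCAAT matches per 100 member windows, against 5.40. A CHR match within 50 bases of the start together with at least 2 CCAAT matches was found in 15 of 34 member windows (44.1%). The share was 21.8% in other mitosis genes (12 of 55) and 0.78% in expressed genes.

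**Figure D4:**
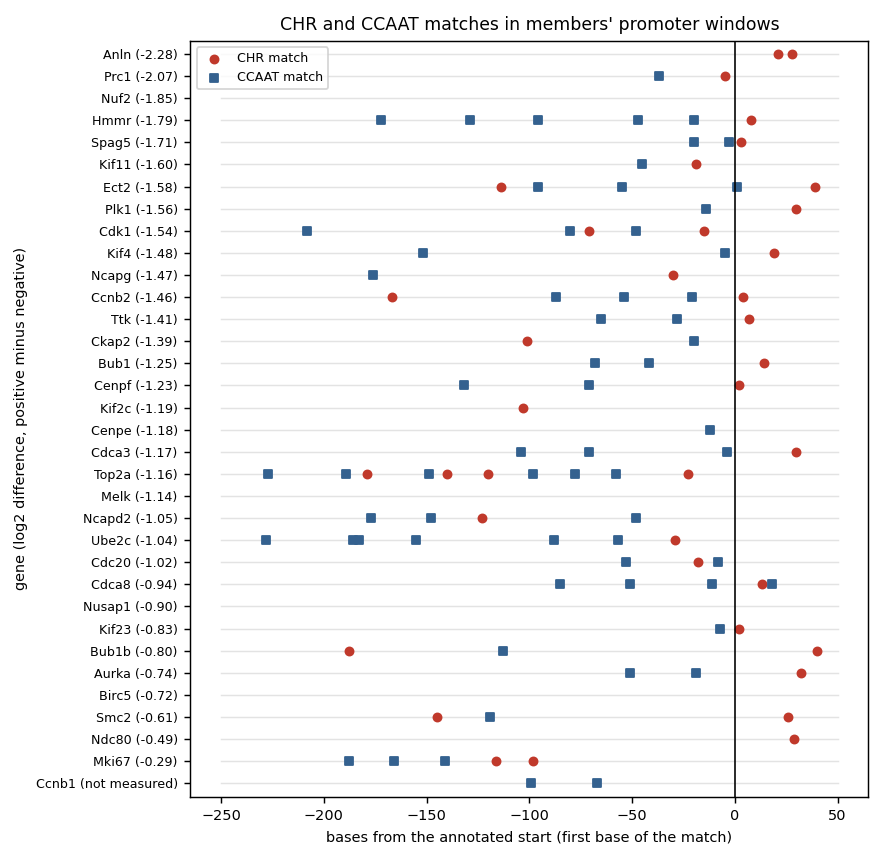
Position of CHR matches (red circles) and CCAAT matches (blue squares) in bases from the annotated start, 1 row for each of the 34 members with a RefSeq window, ordered by log2 difference (in brackets). Of these windows, 24 hold a CHR match within 50 bases of the start, and 4 hold neither element.

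In the windows printed above, Prc1 has 1 CCAAT match and 1 CHR match, Plk1 the same, Cdk1 and Ccnb2 have 3 CCAAT and 2 CHR matches each, and Anln has 2 CHR matches within 10 bases of each other and no CCAAT match. Mki67, with the smallest difference, has 3 CCAAT matches and 2 CHR matches, which lie 116 and 98 bases before the annotated start. CHR matches that far upstream were also the only ones in Ckap2 (-101), Ncapd2 (-123) and Kif2c (-103), members at least 2-fold lower, and Ndc80, which differed by -0.49, has its match 29 bases after the start. Among members at least 2-fold lower, 21 of 24 windows held a CHR match and 20 a CCAAT match. Among members under 2-fold, 7 of 9 held a CHR match and 6 a CCAAT match. Neither element was found in the windows of Nuf2, Melk, Birc5 and Nusap1, of which Nuf2 was among the most different members. In the other lists, CHR was found in 35 of 55 windows of other mitosis genes (63.6%), 5 of 26 of replication genes (19.2%), 3 of 14 of the anaphase-promoting complex (21.4%), 2 of 7 of cohesin, 4 of 16 of transcription factors, 2 of 8 of CDK inhibitors and pocket proteins and 0 of 6 of G1 cyclins and kinases. The E2F core TTCCCGC, on either strand, was in 1 of 34 members (2.94%), 9 of 55 other mitosis genes (16.4%), 11 of 26 replication genes (42.3%) and 8.01% of expressed genes. In the smaller lists it was in 3 of 7 cohesin genes, 3 of 16 transcription factors, 2 of 8 CDK inhibitors and pocket proteins, 1 of 6 G1 genes and 0 of 14 genes of the anaphase-promoting complex. Median GC content was 59.3% in member windows and 60.7% in those of expressed genes, and the GC box GGGCGG, on either strand, was in 82.4% and 61.9%.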

How the data were processed

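The authors deposited 28853 probe set values for each array, used here as log2 values. Their summarization, normalization and log base are not stated in the sources used here, and Partek is the software named, per the submitters' processing notes. The log2 scale was inferred from the values (1.16 to 14.8, array medians 6.16 in B-Gal positive and 6.18 in B-Gal negative cells), and folds depend on it. Platform annotation named 1 gene for 21789 probe sets, several for 1621 and none for 5443. Symbols were matched by gene ID to RefSeq (GRCm38.p6) for 21698, and 0 differed. Of several probe sets of a gene, that with the highest mean was used. Folds with 1 array at or under the floor were computed against the floor and are given as at least that size; counts used deposited values. Receptor genes were left out of expressed genes. Members and lists were chosen with earlier results of these data known. All members may be named; longer lists are named by their extremes and fixed genes, and others are marked. The highest of the other mitosis genes is not reported here. Alternatives covered scaling, low values, probe set choice and fold threshold. Counting and scaling steps were tested on simulated data. The number of arrays limits the precision. Python 3.11.15, pandas 2.3.3, numpy 2.4.6 and statsmodels 0.14.6 were used.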

Additional observations from a re-analysis of the deposited data

Results flagged for a closer look

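Cdkn1a, which encodes the CDK inhibitor p21, was left out of the comparison because its probe set also names the gene 4930567H12Rik. That shared probe set had a log2 value of 11.2 in B-Gal positive and 9.98 in B-Gal negative cells, a difference of 1.18, and it was singled out because it lay above its level in B-Gal negative cells by at least 2-fold. Which of the 2 genes gives the signal cannot be told apart.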

How the results depend on the processing

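All 39 members stayed below 0 under each of the 6 settings that can change a value, and 0 members were at least 2-fold higher under any of the 10 alternatives. The count of members at least 2-fold lower was 28, and 27 to 30 under centring, loess, quantile normalization, no filter, either change of the floor and the mean over probe sets. It was 18 with an offset of 32 on the linear scale, which shrinks differences of low values. By threshold it was 36 at 1.5-fold and 2 at 4-fold. The members' median ran from -1.30 (loess) to -0.97 (offset). Loess moved the median of expressed genes by -0.10, from 0.06 to -0.04. Over expressed genes, 2765 were lower and 2585 higher at 1.5-fold, and 788 lower and 415 higher at 4-fold, against 1753 and 1368 at 2-fold. Among other mitosis genes, the count of 20 lower genes was 9 with the offset, 38 at 1.5-fold and 1 at 4-fold. Of replication genes, 4 were lower at 2-fold, 12 at 1.5-fold and 0 at 4-fold. Counts of 6 or fewer genes in the smaller lists also moved with the threshold or the offset, and the single higher gene of the G1 list (with loess or quantile normalization) and of the cohesin list (with the mean over probe sets) fell under 2-fold. Of 234 member differences under the alternatives, 9 moved by more than the SD of receptor gene differences (0.37); with both probe sets averaged Top2a was at -0.75, under 2-fold, and with values raised to the floor Ttk was at -0.94. No paired analysis was possible because each group had 1 array. No array could be left out.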

Other observations

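Exactly equal values in both arrays, to the 5 decimals of the file, were found for 614 of 28853 probe sets (2.13%), while 15 others differed by less than 0.001 on the log2 scale. The equal values ran from 1.36 to 13.0, with a median of 4.21. Among expressed genes 82 had equal values (0.59%), including the cell cycle genes E2f6 (7.24) and Gins2 (7.15), and 0 of the 39 members did.

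The probe set shared by Hjurp, the chaperone of centromeric histone CENP-A, and 6430706D22Rik had log2 values of 7.78 in B-Gal positive and 9.52 in B-Gal negative cells (-1.74). Of the other mitosis genes, repeat probe sets gave close differences for the CDK subunit gene Cks2 (-0.75, -0.74 and -0.72) and for Depdc1a (-2.20 and -1.92). For the motor gene Kif14 they had opposite signs, -0.74 and 0.24, the second with both arrays under the floor. They also differed for Anapc5, whose 5 probe sets differed by -1.04 to 0.23. The probe set with the highest mean was the one at -1.04. Hjurp, Gins2, E2f6, Cks2, Kif14 and Anapc5 were chosen after their values were seen.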
